A study of Rattus norvegicus with 9 samples.

Results

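Platelet transcripts were followed in 9 libraries of rat lung RNA, and the account below is about 8 of them: Gp6, Itga2b, Gp9, Gp1bb, Pf4, Ppbp, Treml1 and Clec1b. They are 8 of the 22833 genes in the table and were found by gene name, each name having 1 row. The set was selected on measured values of these same libraries, and the contrasts with IR are counted as used for that choice, so the members' differences, calls and p-values in those contrasts are a description and support nothing. All rats were male Sprague-Dawley rats of 8 weeks, anaesthetised with urethane and given heparin at 50 U/kg 10 min before surgery, the Sham rats included. In the Sham group the left hilum was freed but not clamped, in the IR group it was clamped for 30 min and the lung reperfused for 2 h, and I-post C rats had 3 short cycles, each 30 s of clamping and 30 s of flow, between the clamp and the reperfusion. Each group had 3 libraries of polyadenylated lung RNA out of 6 rats, and the sources used here do not give which rats these were or whether RNA was pooled. The p-values therefore measure the spread between these libraries.

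Platelets are the cell fragments that stop bleeding, and they carry RNA left over from the megakaryocytes that shed them, some of which sit in the lung. Gp6 encodes glycoprotein VI, the platelet receptor for collagen, which signals through the Fc receptor gamma chain encoded by Fcer1g. Itga2b encodes the alpha chain of the fibrinogen receptor, and Gp9 and Gp1bb encode parts of the receptor complex for von Willebrand factor. Pf4 and Ppbp encode chemokines stored in the alpha granules. Treml1 encodes a receptor held in the same granules until activation, and Clec1b encodes CLEC-2, a receptor for podoplanin. In bulk lung RNA, a change in the number of platelets and a change in RNA per platelet cannot be told apart.

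Total counts ran from 45110590 in IR 1 to 51214941 in Sham 1, and the lung genes Sftpa1, Ager, Scgb1a1, Cldn18 and Lamp3 were abundant in all 9 libraries, with a lowest FPKM of 136. FPKM is a level in fragments scaled for gene length and library size. IR 3 held skeletal muscle transcripts, with a summed FPKM of 4300 over 8 muscle markers against at most 77.5 in any other library. The value of 77.5 came from Sham 3. Results are also given without these 2 libraries where they moved, a setting that was not planned.

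Sequences of 3 members are shown from before the start site, because their windows hold words for the GATA and ETS factor families, which drive megakaryocyte genes, close together. The sequences are the 250 bases upstream of the RefSeq start in the GRCr8 build, 5′ to 3′ on the strand of the gene (plus for Gp6 and Clec1b, minus for Itga2b). Capitals mark the words searched on both strands. For GATA these were the word AGATAA, then the word TGATAA, then the word AGATAG and last the word TGATAG. For ETS they were the word AGGAAG and also the word CGGAAG. Another word in capitals is the reverse complement of one of these, and touching words run together.
Gp6: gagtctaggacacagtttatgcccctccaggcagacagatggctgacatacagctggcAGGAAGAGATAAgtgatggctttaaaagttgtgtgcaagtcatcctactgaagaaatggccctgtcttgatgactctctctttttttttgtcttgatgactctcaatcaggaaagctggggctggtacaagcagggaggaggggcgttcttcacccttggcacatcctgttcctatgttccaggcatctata
Itga2b: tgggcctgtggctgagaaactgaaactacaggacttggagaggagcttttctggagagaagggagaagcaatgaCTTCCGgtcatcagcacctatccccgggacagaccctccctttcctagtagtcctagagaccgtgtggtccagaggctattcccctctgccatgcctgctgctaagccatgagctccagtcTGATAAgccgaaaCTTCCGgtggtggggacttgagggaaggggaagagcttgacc
Clec1b: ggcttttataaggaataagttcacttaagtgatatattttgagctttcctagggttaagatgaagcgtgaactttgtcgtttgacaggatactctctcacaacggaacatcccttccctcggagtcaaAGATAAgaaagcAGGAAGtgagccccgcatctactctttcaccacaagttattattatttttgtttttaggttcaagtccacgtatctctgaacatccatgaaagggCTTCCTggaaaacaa
In Gp6 the ETS word at position 59 is followed directly by the GATA word at position 65. In Clec1b the GATA word at position 129 precedes the ETS word at position 141, and in Itga2b the GATA word at position 196 precedes the ETS word at position 209. RefSeq windows of 300 bases, 250 before and 50 after the start, were matched by symbol for 7 of the 8 members, all but Pf4. Both kinds of word occurred in 4 of these 7 windows (Gp6, Itga2b, Clec1b and Gp1bb), and in 12.9% of all 33469 windows. Their starts lay within 20 bases of each other in 3 of 7 member windows and in 2.56% of all windows, a spacing chosen after the sequences had been seen. A GATA word, with or without an ETS word, occurred in 4 of 7 and in 30.3% of all windows, and an ETS word, with or without a GATA word, in 5 of 7 and in 45.5%. Gp9 held ETS words only, and the windows of Ppbp and Treml1 held no listed word of either kind. A match describes the letters and is not a binding site.

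Gp6 (ENSRNOG00000047204, chromosome 1, 73040901 to 73064641, plus strand, rn6) was present at a low level. With libraries 1 to 3 in order, here and for each gene that follows, its FPKM was 0.260, 0.361 and 0.164 in Sham lungs, against 1.39, 1.42 and 1.60 in IR lungs and 0.484, 0.258 and 0.417 after I-post C. These levels rested on 24 to 50 counts in Sham lungs, 179 to 217 in IR lungs and 35 to 68 in I-post C. The 3 IR libraries lay close together and above all other libraries, while Sham and I-post C overlapped. The mean was 0.262 ± 0.0989 (SD, n = 3) in Sham lungs, 1.47 ± 0.115 (SD, n = 3) in IR lungs and 0.386 ± 0.116 (SD, n = 3) in I-post C.

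Itga2b (ENSRNOG00000022071, chromosome 10, 90398132 to 90415070, minus strand) had an FPKM of 2.80, 1.51 and 3.47 in Sham lungs, 4.32, 5.98 and 5.32 in IR lungs and 3.82, 2.18 and 3.89 in I-post C. Like Gp6, it was higher in each IR library than in the other 6. Clec1b (ENSRNOG00000057335, chromosome 4, 163162211 to 163170466, plus strand) had an FPKM of 4.85, 3.90 and 5.38 in Sham lungs, 8.19, 11.5 and 8.73 in IR lungs and 8.20, 4.05 and 7.09 in I-post C. All IR values of Clec1b exceeded Sham, but I-post C 1 was at the level of IR 1. Treml1 (ENSRNOG00000040109, chromosome 9, 14597172 to 14599594, minus strand) had an FPKM of 1.24, 1.32 and 2.61 in Sham lungs, 4.04, 5.00 and 9.24 in IR lungs and 4.32, 1.81 and 4.62 in I-post C. Its IR values also lay above Sham and overlapped I-post C, and the highest of them came from IR 3.

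The members of the von Willebrand factor receptor were the least regular. Gp9 (ENSRNOG00000010015, chromosome 4, 119680112 to 119682547, plus strand) had an FPKM of 0.609, 0.111 and 0.883 in Sham lungs, 0.764, 1.47 and 1.41 in IR lungs and 1.80, 0.723 and 0.977 in I-post C, so that all 3 groups overlapped. Gp1bb (ENSRNOG00000046981, chromosome 11, 86520992 to 86522169, plus strand) had 90 counts in Sham 3 and at most 2 counts in the other 8 libraries. It lies within the table's entry for Septin5 on the same strand, so reads from the 2 genes could not be separated by strand, and no fold is given for it. Its counts in 8 libraries do not place Gp1bb with the other members. Whether the transcript was absent there or its reads were not counted was not tested. The other 2 genes of this complex, named after their values were seen, were also low and differed from each other. Gp1ba had 0.0900 to 0.251 FPKM in Sham lungs, 0.615 to 0.971 in IR lungs and 0.223 to 0.445 in I-post C, with IR above the rest. Gp5 had 0.153 to 0.311 FPKM in Sham lungs, 0.199 to 0.481 in IR lungs and 0.116 to 0.278 in I-post C, so that all groups overlapped.

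The granule chemokines lie side by side on chromosome 14, Pf4 (ENSRNOG00000028015) at 18848549 to 18849258 and Ppbp (ENSRNOG00000002829) at 18851954 to 18853315, both on the minus strand and 2696 bases apart. Pf4 was the most abundant member, with an FPKM of 30.2, 33.6 and 44.1 in Sham lungs, 49.1, 44.5 and 62.5 in IR lungs and 31.4, 22.9 and 39.6 in I-post C. Its IR values lay above those of the other 6 libraries, but Sham 3 was just under the lowest IR library. Ppbp had an FPKM of 0.626, 0.441 and 0.638 in Sham lungs, 1.81, 1.86 and 3.11 in IR lungs and 1.68, 0 and 1.67 in I-post C. The value of 0 came from I-post C 2, the library in which Pf4 was also lowest, and Ppbp in IR again lay above the rest.

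**Figure D1:**
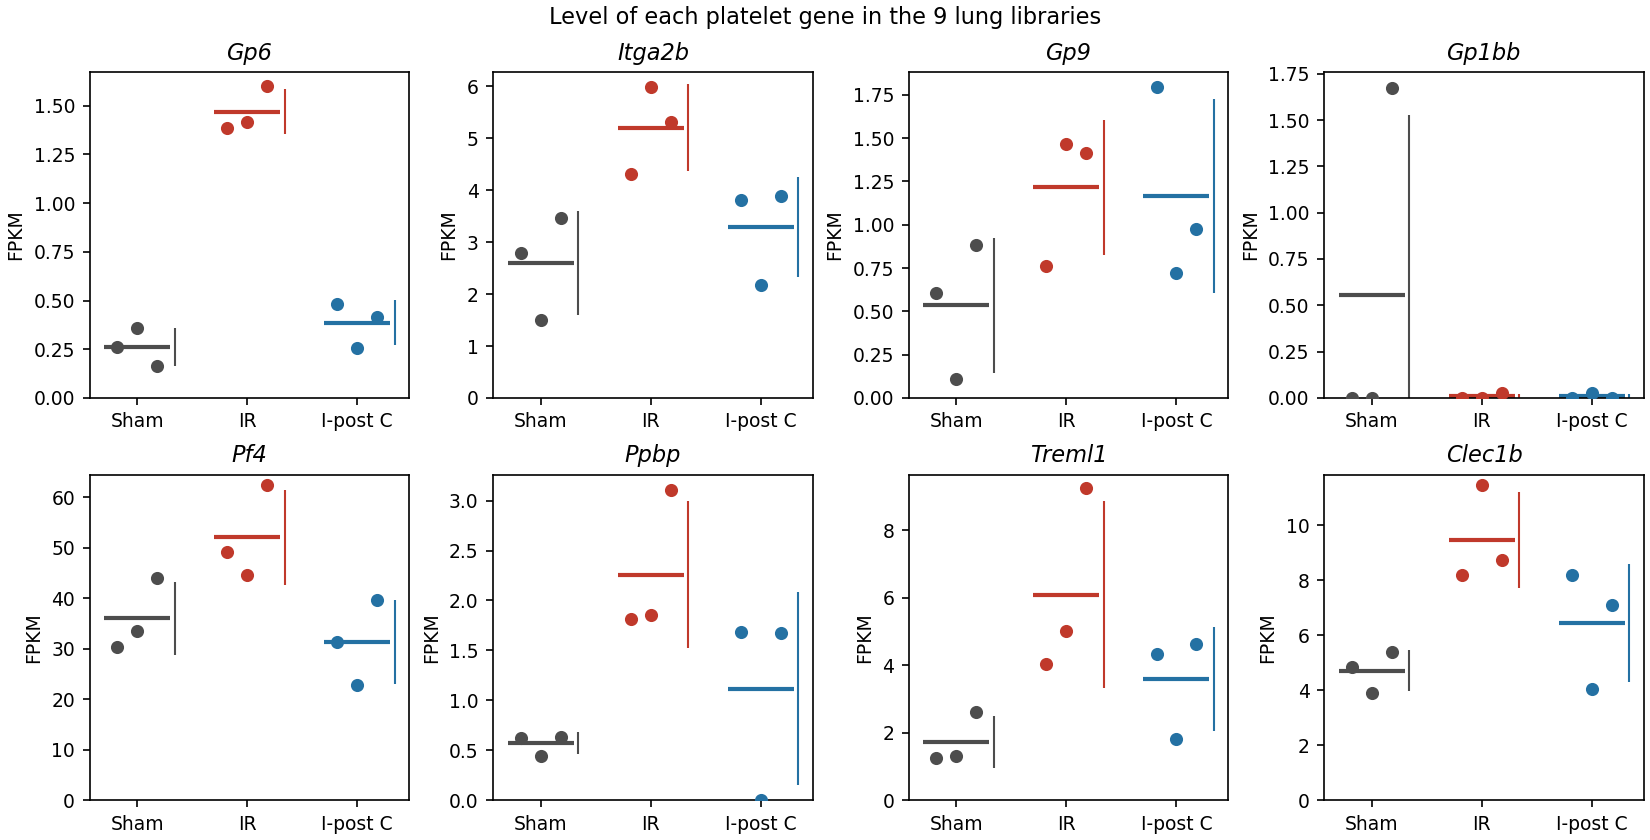
FPKM of each of the 8 platelet genes (y axis, a scale of its own for each gene) by group. Points are libraries, horizontal lines are group means and vertical bars are the SD (n = 3). Gp6 was at 1.39 to 1.60 in IR lungs and at most 0.484 elsewhere, and Gp1bb was near 0 outside Sham 3.

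The first comparison asks what clamping and reperfusion did to these transcripts. All IR libraries exceeded all Sham libraries for 6 of the 7 members that passed the filter on low values (a mean FPKM of at least 0.5), the exception being Gp9. Gp1bb, with a mean FPKM of 0.192, did not pass and was not tested. Over all 15402 genes that passed, 5.62% had this pattern, a share read only as background since the set was chosen from it. Gp6 was 5.88-fold higher in IR than in Sham by edgeR, a log2 fold change of 2.56 (SE 0.46). Next came Ppbp with a log2 fold change of 2.07 (SE 1.13), Treml1 with 1.89 (SE 0.58), Gp9 with 1.27 (SE 0.71), Itga2b with 1.08 (SE 0.38), Clec1b with 1.07 (SE 0.35) and Pf4 with 0.60 (SE 0.33). The median of these 7 was 1.27, against -0.02 over all genes tested.

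None of the 7 was called by edgeR at an adjusted p under 0.05 and a log2 fold change of at least 1, where 0.279% of all genes were called higher. The adjusted p of edgeR was 0.0706 for Gp6 and between 0.27 and 0.512 for the other 6. Of the 7, 4 (Gp6, Treml1, Clec1b and Itga2b) had an unadjusted p under 0.05, which 6.47% of all genes had in this direction. DESeq2 fitted to all 9 libraries called Gp6 (adjusted p = 4.43e-06) and Treml1 (adjusted p = 0.0434), with 1.57% of genes called higher. DESeq2 fitted to the IR and Sham libraries called Gp6 (adjusted p = 1.65e-05) and Ppbp (adjusted p = 0.0171), with 1.51% called higher. The direction was the same in every fit run for all 7, and the call of Gp6 depended on the tool. Without Sham 3 and IR 3 the log2 fold change of Gp6 was 2.17.

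The second comparison asks what postconditioning changed against IR. All I-post C libraries lay below all IR libraries for Gp6, Itga2b, Pf4 and Ppbp, 4 of 7 members, against 2.59% of all genes. These 4 are also the members whose IR values exceeded the other 6 libraries, a pattern held by 1.01% of all genes. Gp6 was 4.15-fold lower in I-post C than in IR (log2 fold change -2.05, SE 0.45). Ppbp had -1.16 (SE 1.09), Treml1 -0.94 (SE 0.56), Pf4 -0.88 (SE 0.33), Itga2b -0.80 (SE 0.38), Clec1b -0.68 (SE 0.35) and Gp9 -0.22 (SE 0.70). The median was -0.88, against -0.01 over all genes tested, and without I-post C 2 the value of Gp9 was 0.046.

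No member passed edgeR's threshold in this comparison, and neither did any other gene that was lower in I-post C (0%). Of the 7, 2 (Gp6 and Pf4) had an unadjusted p under 0.05, with 1.96% of all genes in this direction. DESeq2 called Gp6 alone among the members, with an adjusted p of 0.00651 on all 9 libraries (0.0454% of genes called lower) and of 0.000481 on the 6 libraries compared (0.13% called lower). This comparison shares its IR libraries with the first, so high IR values enter both.

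**Figure D2:**
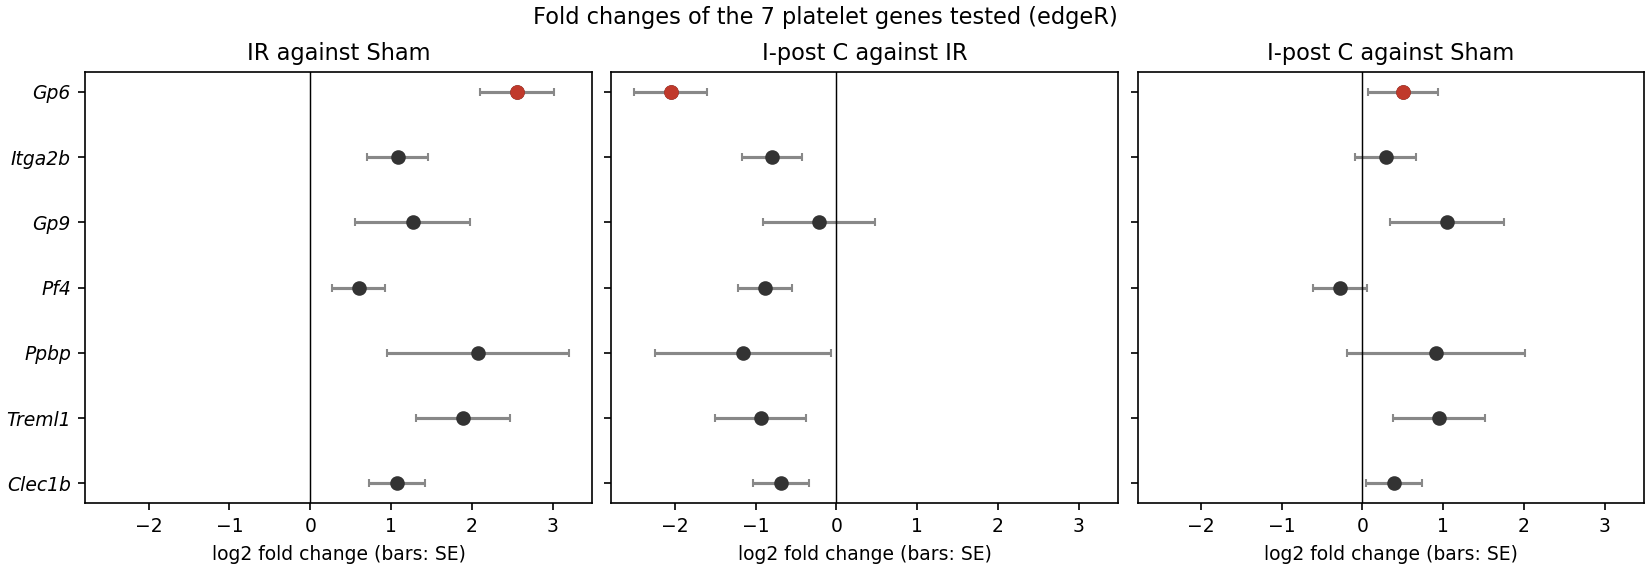
Log2 fold change (x axis) of the 7 platelet genes tested, by edgeR on all 9 libraries, in 3 comparisons of the groups. Points are estimates and bars are their SE. Gp6 had 2.56 in IR against Sham, -2.05 in I-post C against IR and 0.50 in I-post C against Sham.

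The third comparison set I-post C against Sham. No member had all I-post C libraries above all Sham libraries, a pattern of 5.56% of all genes. The log2 fold change was 1.05 (SE 0.71) for Gp9, 0.95 (SE 0.57) for Treml1, 0.92 (SE 1.10) for Ppbp, 0.50 (SE 0.44) for Gp6, 0.39 (SE 0.35) for Clec1b, 0.29 (SE 0.37) for Itga2b and -0.28 (SE 0.33) for Pf4. Gp6, first among the members in the other 2 comparisons, was in the middle here, and its adjusted p by edgeR was 0.825. No member was called by edgeR (0% of genes called higher) or had an unadjusted p under 0.05 (3.72% in this direction), and neither DESeq2 fit called one (0.721% and 0.617% called higher on 9 and on 6 libraries).

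When both clamped groups were set against Sham, the log2 fold change was 1.53 (SE 0.40) for Gp6, 1.50 (SE 1.01) for Ppbp, 1.42 (SE 0.52) for Treml1, 1.16 (SE 0.64) for Gp9, 0.73 (SE 0.31) for Clec1b, 0.69 (SE 0.33) for Itga2b and 0.16 (SE 0.29) for Pf4. None was called by edgeR, where 0.039% of genes were called higher. Gp6, Treml1 and Clec1b had an unadjusted p under 0.05 (5.73% of all genes), and DESeq2 called Gp6 (adjusted p = 0.00912), with 1.41% of genes called higher.

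Whether Gp6 followed the other platelet transcripts was read from its level relative to theirs in the same library. On the log2(FPKM + 0.5) scale, Gp6 minus the mean of the other 7 was -1.71, -1.26 and -2.51 in Sham lungs, -1.05, -1.27 and -1.34 in IR lungs and -2.00, -1.50 and -2.04 in I-post C. The group means were -1.83 ± 0.63, -1.22 ± 0.15 and -1.85 ± 0.30 (SD, n = 3 each), a difference of 0.61 between IR and Sham. Each IR library lay above each I-post C library, but Sham 2 lay among the IR libraries. With Gp1bb left out of the reference, the difference between IR and Sham was 0.37, and IR overlapped both other groups. No test is given, because Gp6 and its companions were chosen from these values.

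Between IR and Sham, the result depended on the gene Gp6 was set against. As a percent of the Pf4 FPKM, Gp6 was 0.858, 1.08 and 0.371 in Sham lungs, 2.82, 3.19 and 2.56 in IR lungs and 1.54, 1.13 and 1.05 in I-post C, so IR stood above both other groups. As a percent of Clec1b it was 5.35, 9.26 and 3.04 in Sham lungs, 16.9, 12.4 and 18.3 in IR lungs and 5.91, 6.36 and 5.89 in I-post C, again with IR above the rest. This separation was lost on the log2(FPKM + 0.5) scale. There the lowest IR value of Gp6 minus Clec1b was -2.64, below the highest of Sham (-2.35) and of I-post C (-2.59). As a percent of Itga2b, Gp6 was 9.28, 24.0 and 4.71 in Sham lungs, 32.1, 23.7 and 30.1 in IR lungs and 12.7, 11.8 and 10.7 in I-post C. Here IR was above I-post C, while Sham 2, the library with the least Itga2b, overlapped IR. As a percent of Treml1, Gp6 was 20.9, 27.3 and 6.27 in Sham and 34.3, 28.3 and 17.3 in IR, which overlap, and 11.2, 14.2 and 9.03 in I-post C. Set against Ppbp, Gp6 also overlapped between Sham (25.7% to 82.0%) and IR (51.5% to 76.5%). In I-post C 1 and 3 it was 28.8% and 24.9%, with no value for I-post C 2, where Ppbp was 0. As a percent of Gp9, Gp6 was 42.7, 326 and 18.5 in Sham and 182, 96.5 and 113 in IR, which overlap. In I-post C it was 27.0, 35.6 and 42.7. For each gene here, every IR percent lay above every I-post C percent. On the log2(FPKM + 0.5) scale IR and I-post C overlapped when Gp6 was set against Ppbp, Treml1 or Clec1b.

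**Figure D3:**
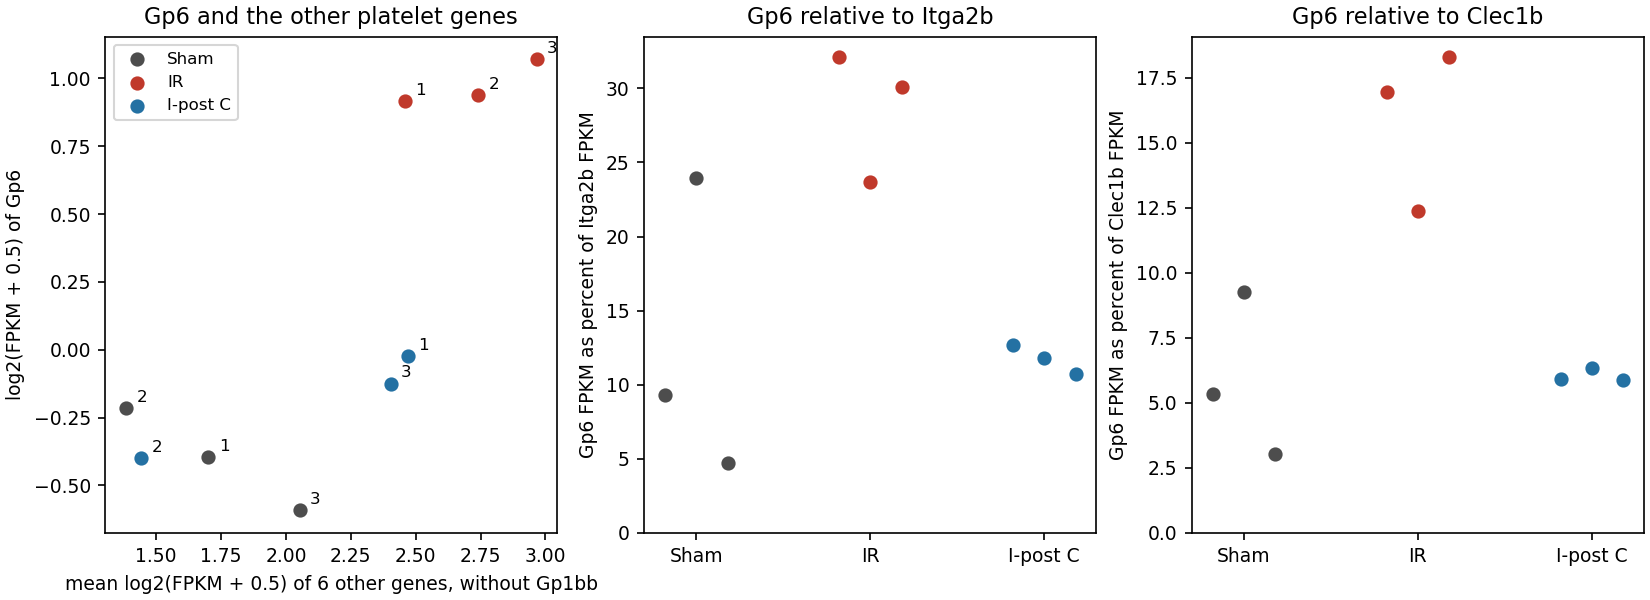
Left, log2(FPKM + 0.5) of Gp6 (y axis) against the mean of 6 other platelet genes, without Gp1bb (x axis), with points as libraries, coloured by group and marked with the replicate number. Middle and right, Gp6 FPKM as a percent of Itga2b and of Clec1b by group. IR 1 and the I-post C libraries 1 and 3 had means of 2.40 to 2.47 for the other genes, and among these 3 Gp6 was highest in IR 1.

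Of the IR and I-post C libraries, 3 had like means over the other platelet transcripts, though not like levels of each gene. The mean of the other 6, without Gp1bb, on the log2(FPKM + 0.5) scale was 2.46 in IR 1, 2.47 in I-post C 1 and 2.40 in I-post C 3. Gp6 on that scale was 0.92, -0.02 and -0.12 in these libraries, which were picked after the values had been seen. No Sham library reached this mean, the highest being Sham 3 with 2.05, where Gp6 was -0.59.

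Within groups, Gp6 correlated less with the other members than most of them did with each other. A weak correlation over 9 libraries says little. Gp6 rested on 24 to 217 counts, Gp9 on 10 to 163 and Ppbp on 0 to 150, and the part of low counts was not tested. After the group mean of log2(FPKM + 0.5) was taken off, the 15 pairs among Itga2b, Gp9, Pf4, Ppbp, Treml1 and Clec1b correlated over the 9 libraries with Pearson's r of 0.37 to 0.92 (median 0.69) and Spearman's rho of 0.32 to 0.87. Gp6 correlated with the same 6 genes with r of -0.06 to 0.65 (median 0.29) and rho of -0.10 to 0.60. Its closest partner was Ppbp, and with Itga2b r was -0.06. In Sham 3 all 6 other genes were above their group mean, and Gp6 was below its own by 0.19. In I-post C 2 all 7 were below their group means, Gp6 by 0.22 and Ppbp by 1.41. These values share library depth and 3 group means, and are a description added after the data had been seen.

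**Figure D4:**
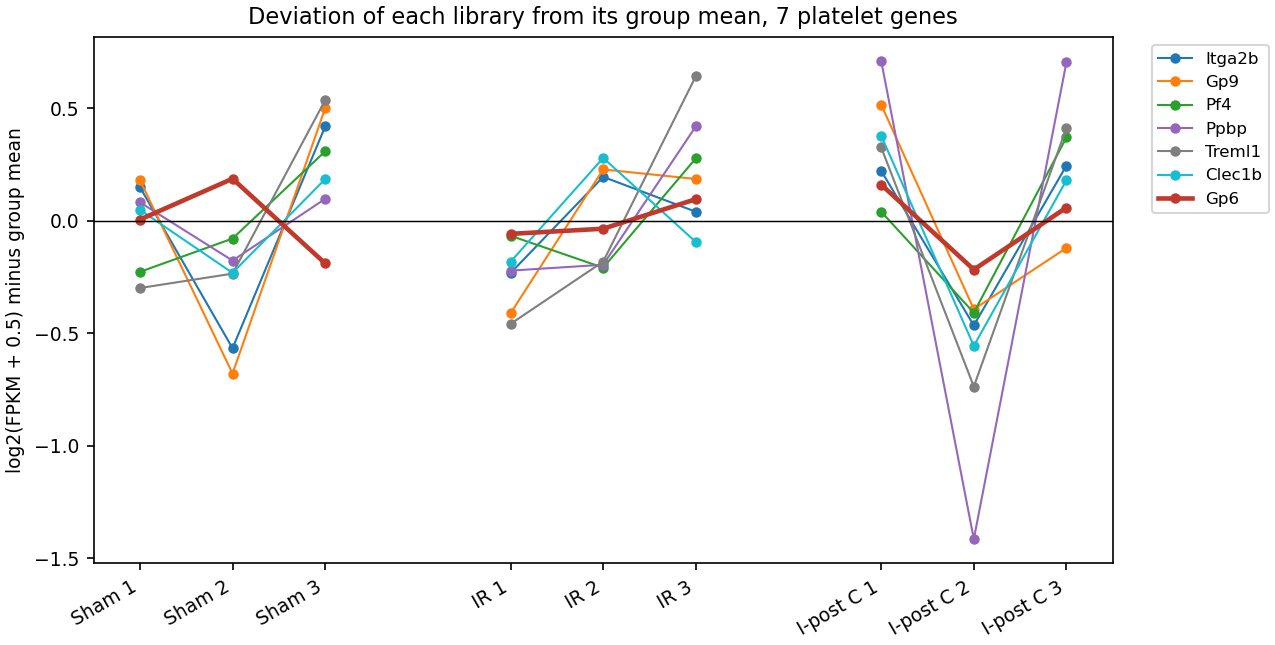
Log2(FPKM + 0.5) of 7 platelet genes minus the gene's group mean (y axis) in each library (x axis), with a line for each gene and Gp6 drawn thick. The 6 other genes lay above their mean in Sham 3, where Gp6 was at -0.19, and all 7 were below it in I-post C 2.

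The genes most like Gp6 over the 9 libraries, by Pearson's r of log2(FPKM + 0.5) among 15401 genes, were no platelet genes of the lists used here. They were Trim16 (0.965), a TRIM family protein, Ptgs2 (0.951), the inducible cyclooxygenase, Bcar3 (0.949), an adaptor of integrin signalling, an entry without a gene name, ENSRNOG00000057682 (0.945), and Mtfr1l (0.943), a mitochondrial fission regulator. Ptgs2 had an FPKM of 0.401 to 1.51 in Sham lungs, 6.05 to 16.5 in IR lungs and 1.53 to 3.17 in I-post C, which is the same order of groups as for Gp6. That order was built into the ranking, since r was taken with the group differences left in, and it supports nothing. The members came further down, Clec1b in place 83 (r 0.803), Ppbp in 133, Treml1 in 153, Itga2b in 227, Pf4 in 232 and Gp9 in 1592. By likeness to the mean of the 7 other members, the first 5 of 15402 genes were Klf4 (0.954), Itga2b (0.949), Treml1 (0.930), Cidea (0.915) and Slc25a10 (0.911), and Gp6 came in place 187 (r 0.694). Itga2b and Treml1 are part of that mean, which raises their r.

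No table entry overlapped Gp6, and the nearest was Rdh13, a retinol dehydrogenase gene, 56551 bases away on the same strand. Rdh13 had a mean FPKM of 2.34 in Sham lungs, 1.85 in IR lungs and 1.82 in I-post C, so its level was not higher in IR. Beside the chemokine pair, 6949 bases from Ppbp, Cxcl6 had an FPKM of 0.288 to 0.661 in Sham lungs, 1.35 to 11.2 in IR lungs and 0.558 to 0.865 in I-post C. Its highest value, like those of Pf4 and Ppbp, came from IR 3. Cxcl3, on the other side of Pf4, had 109 to 167 in Sham lungs, 146 to 184 in IR lungs and 137 to 172 in I-post C.

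The wider platelet lists had medians nearer to 0 than the 8 genes. Of the 23 surface receptor genes tested, which include Gp6, Itga2b, Gp9, Treml1 and Clec1b, 0 were called by edgeR in any comparison. In IR against Sham 6 had an unadjusted p under 0.05 on the higher side (6.47% of all genes). Of the 6, 4 are members (Gp6, Itga2b, Treml1 and Clec1b) chosen from this contrast, so the count supports nothing. The others were F2r (log2 fold change 0.59, SE 0.16) and F2rl2 (2.03, SE 0.67). On the lower side there was 1, Tbxa2r (5.77%). DESeq2 on all 9 libraries called 2 of the 23 in IR against Sham (1.57% of all genes called higher), and limma 0 (0.24%). The 2 were Gp6 and Treml1, both members. With the members included, the median log2 fold change of the 23 was 0.14, with 16 of 23 above 0, against 47.9% of all genes. The most abundant of the 23 in lung, Cd9 and Fcer1g, are made by many cell types. Their log2 fold changes were -0.31 (SE 0.25) and -0.29 (SE 0.24). Itgb3, which encodes the beta chain that pairs with the Itga2b product, had an FPKM of 5.52, 1.58 and 1.30 in Sham lungs, 5.57, 3.29 and 2.12 in IR lungs and 5.94, 6.33 and 2.97 in I-post C. Unlike Itga2b, it was high in Sham 1 and overlapped across all groups. Mpig6b, an inhibitory receptor of megakaryocytes and platelets, had a mean FPKM of 0.655 in Sham lungs, 0.652 in IR lungs and 0.944 in I-post C. Tubb1, the platelet beta-tubulin, had 0.0895 to 0.854 in Sham lungs, 0.995 to 1.02 in IR lungs and 0.503 to 0.656 in I-post C, so that IR was above the rest (log2 fold change 1.42, SE 0.63 against Sham). Itgb3, Mpig6b and Tubb1 were picked after their values had been seen.

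Granule genes and genes of the signalling route behind glycoprotein VI had medians near 0. In IR against Sham the median log2 fold change was 0.04 over 24 granule genes, Pf4 and Ppbp among them, of which 3 (Thbs1, Selp and F13a1) had an unadjusted p under 0.05 on the higher side (6.47% of all genes) and 0 were called by edgeR (0.279%). DESeq2 on all 9 libraries called these 3 genes (1.57% of all genes), and limma 0 (0.24%). Thbs1, which encodes thrombospondin and is also made by other lung cells, had an FPKM of 1.52 to 15.6 in Sham lungs, 32.0 to 66.3 in IR lungs and 18.5 to 101 in I-post C, so that, unlike Gp6, its I-post C values also lay above Sham. Selp, the P-selectin gene, which endothelium shares with platelets, had 0.924 to 2.86 in Sham lungs, 3.05 to 18.4 in IR lungs and 3.14 to 7.41 in I-post C. The median was -0.06 over the 18 signalling genes. Of these, 1, the Src family kinase gene Fyn, had an unadjusted p under 0.05 on the higher side (6.47% of all genes). Its log2 fold change was 0.70 (SE 0.14, adjusted p by edgeR 0.105). Sparc and Vamp8, the most abundant granule genes, had a mean FPKM of 1805 and 764 in Sham and 2091 and 506 in IR. Of the signalling genes, Rap1b had 154 in Sham lungs, 171 in IR lungs and 182 in I-post C. Over 11 megakaryocyte transcription factor genes the median was -0.15. Of these, 2 (Fli1 and Mef2c) had an unadjusted p under 0.05 on the higher side (6.47% of all genes). Fli1, an ETS factor, had a mean FPKM of 14.2 ± 10.7 in Sham lungs, 28.3 ± 11.8 in IR lungs and 27.9 ± 12.1 in I-post C (SD, n = 3 each), so that its groups overlapped. Over 7 other collagen receptor genes the median was 0.18 and 0 had an unadjusted p under 0.05 (6.47% of all genes higher and 5.77% lower). Over the 12 cytoskeleton and eicosanoid enzyme genes the median was 0.23. Of these, 2 (Tubb1 and Tpm4) had an unadjusted p under 0.05 on the higher side (6.47% of all genes). On the lower side there was 1, Gng11 (log2 fold change -1.10, SE 0.45), with 5.77% of all genes.

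Markers of other blood cells were read in the same libraries, and edgeR called 0 of 9 erythroid and 0 of 11 neutrophil markers in any comparison. In IR against Sham, 3 erythroid and 4 neutrophil markers had an unadjusted p under 0.05, all on the higher side (6.47% of all genes), and in I-post C against Sham 3 and 7 (3.72%). DESeq2 on all 9 libraries called 1 erythroid marker in each of these comparisons (Tfrc, then Slc4a1) and 0 neutrophil markers. It called 1.57% and then 0.721% of all genes higher. On the 6 libraries compared it called 0 and 4 in IR against Sham (1.51%) and 2 and 1 in I-post C against Sham (0.617%). With both clamped groups against Sham, DESeq2 on all 9 libraries called 2 erythroid (Alas2 and Slc4a1) and 2 neutrophil markers (S100a8 and S100a9), with 1.41% of all genes called higher. The summed FPKM of 12 erythroid markers was 4705 to 12709 in Sham lungs, 5758 to 21370 in IR lungs and 16120 to 20297 in I-post C. That of 12 neutrophil markers was 105 to 168 in Sham lungs, 325 to 881 in IR lungs and 213 to 1347 in I-post C. The 1347 came from I-post C 3, while I-post C 1 with 249 and I-post C 2 with 213 lay below every IR library. Most of the neutrophil sum was S100a8 and S100a9, and nearly all of the erythroid sum was Hbb, Hba-a1 and Hba-a2. Gene by gene, the neutrophil markers were not lower in I-post C than in IR. The median log2 fold change of the 11 tested was 0.07, with 6 above 0 (47.6% of all genes). The summed FPKM of the 8 platelet genes, mostly Pf4, was 40.6 to 58.9 in Sham lungs, 69.6 to 91.9 in IR lungs and 31.9 to 58.3 in I-post C. IR 1 held 69.6 of platelet genes beside 5758 of erythroid markers, fewer than in 2 of the 3 Sham libraries, and I-post C 2 held 31.9 beside 16120. In I-post C against Sham the median log2 fold change was 1.27 for the erythroid markers tested and 1.88 for the neutrophil markers, against 0.50 for the platelet genes. No marker of these lists was at 0 in all 9 libraries. Pf4 and Clec1b are also known from myeloid cells in mouse, and the summed FPKM of 10 macrophage and monocyte markers was 21997 to 31627 in Sham lungs, 20682 to 22232 in IR lungs and 16607 to 20476 in I-post C. Nearly all of that sum was Lyz2, which alveolar epithelium also makes. Csf1r, the receptor that defines the monocyte and macrophage lineage, had an FPKM of 48.7 to 60.8 in Sham lungs, 41.8 to 58.8 in IR lungs and 41.6 to 72.4 in I-post C, so that its groups overlapped. Of the 9 markers tested in IR against Sham, 5 had a log2 fold change above 0, against 47.9% of all genes. Of the 9, 1 (Cd14) had an unadjusted p under 0.05, on the higher side (6.47% of all genes). The part of these other cells in the platelet results was not tested.

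**Figure D5:**
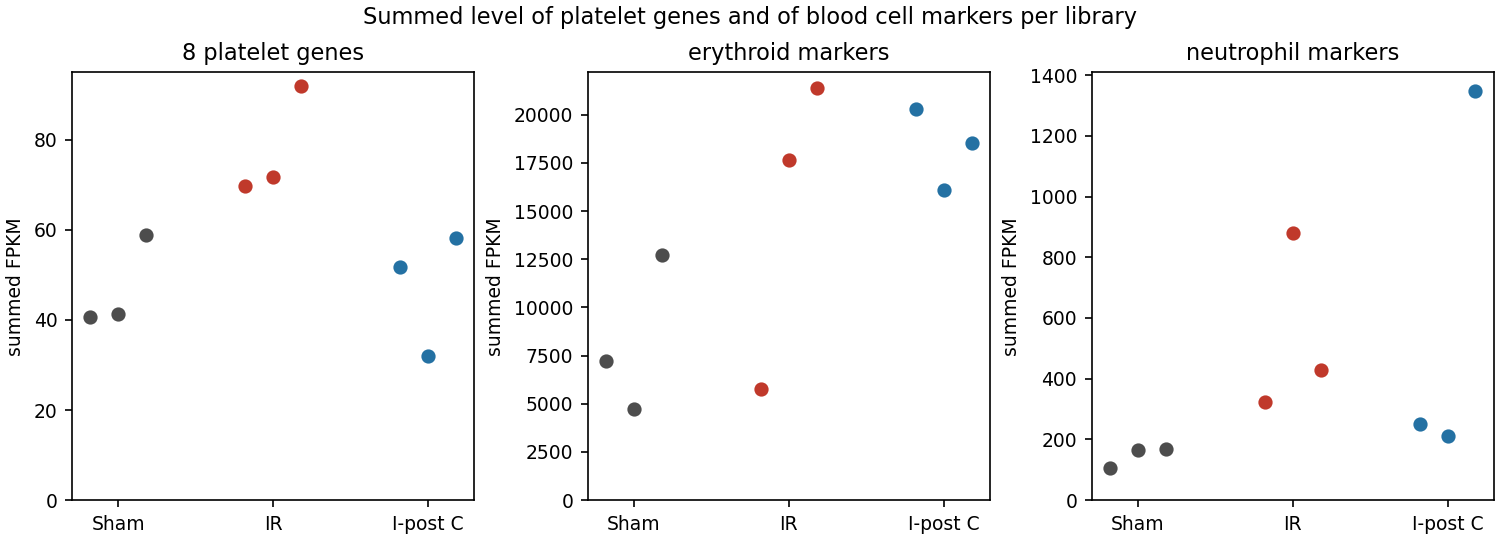
Summed FPKM per library (y axis, a scale of its own for each panel, starting at 0) of the 8 platelet genes, 12 erythroid markers and 12 neutrophil markers, by group. Points are libraries. The platelet sum was at least 69.6 in each IR library and at most 58.9 elsewhere. The erythroid sums of I-post C lay within the range of IR. Of the neutrophil sums of I-post C (249, 213 and 1347 in libraries 1 to 3), only that of library 3 reached those of IR. Most of the neutrophil sum was S100a8 and S100a9.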

How the data were processed

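The 9 lung libraries, 3 per group, were sequenced as paired ends from a library kit that marks strand. The submitters' processing notes name cutadapt 1.9, HISAT2 2.2.1, StringTie 2.1.6, DESeq2 and edgeR and the rn6 build. The FPKM values were deposited by the authors, scaled for transcript length and library size. Deposited beside them were raw counts, whole numbers for each gene and library. The sources used here do not give how these were made or whether strand was used. Their totals, 45110590 to 51214941, exceed the mapped reads the study lists, so no counting intervals are given, and counting error cannot be read from them. All sample columns of the table matched a sample. Columns with the authors' own fold changes and p-values were not used.

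The counts were tested with edgeR 4.0.16 (R 4.3.3) by the quasi-likelihood test with TMM scaling, all 9 libraries and group as the only term, after a filter on low values (mean FPKM at least 0.5, which 15402 genes passed). P-values were two-sided and adjusted by Benjamini-Hochberg over these genes, and a call needed an adjusted p under 0.05 and a log2 fold change of at least 1. The common biological coefficient of variation was 0.406. Alternatives were DESeq2 1.42.0, limma 3.58.1 on log2(FPKM + pseudocount), other scalings and filters, a replicate block and leaving out libraries. The script was tested on simulated data. The named genes were the 8 members, the 2 to 3 most abundant of each other list or those called, the 5 most like Gp6 and the 5 most like the mean of the others, and the neighbours of Gp6. Other genes named (Gp1ba, Gp5, Itgb3, Mpig6b, Tubb1, Csf1r, the neighbours of Pf4 and Ppbp, and single genes of the lists at an unadjusted p under 0.05) were picked after their values were seen. Of the 28 surface receptor genes listed, 27 were in the table. The members and lists were chosen with earlier results of these data known. Promoter sequences are from RefSeq, build GRCr8, and rn6 coordinates are from the table.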

Additional observations from a re-analysis of the deposited data

How the results depend on the processing

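The number of members called was 0 of 7 by edgeR in each comparison, and 0 under every limma fit, edgeR scaling, filter, left-out library and without Sham 3 and IR 3 together. DESeq2 called 2 in IR against Sham (Gp6 and Treml1 on 9 libraries, Gp6 and Ppbp on the 6 compared), 1 in I-post C against IR under both fits and 1 in both clamped groups against Sham. The direction of each log2 fold change was kept under the alternatives run, with 2 exceptions: leaving out single libraries, Gp9 in I-post C against IR ranged from -0.67 to 0.046 (without I-post C 2), and Pf4 in both clamped groups against Sham ranged from -0.023 (without Sham 1) to 0.38. The cause was not tested. Gp6 in IR against Sham ranged from 2.17 to 2.90 over the edgeR fits and from 0.97 to 2.15 under limma, whose pseudocount shrinks low genes. In I-post C against IR, limma on FPKM also moved the median of all genes to 0.11 at a pseudocount of 0.5, 0.12 at 0.1 and 0.10 at 1.

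The level of Gp6 relative to the other members, IR minus Sham, was 0.61 on the log2 scale. It was 1.28 at a pseudocount of 0.1, 0.30 at a pseudocount of 1, 2.06 against Gp1bb alone, 0.034 against Ppbp alone and -0.16 against Treml1 alone. I-post C minus IR was -0.63. That difference was -1.05 at a pseudocount of 0.1, -0.38 at 1, -1.09 against Gp9 alone, -1.16 against Gp1bb alone and -0.14 against Ppbp alone. At a pseudocount of 0.1 the IR libraries lay above both other groups, but above I-post C only with Gp1bb left out of the reference. At a pseudocount of 1 the IR libraries overlapped both other groups. Without single libraries the 2 differences ranged from 0.27 (without Sham 3) to 0.89 and from -0.80 to -0.53.

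With the replicate number as a block, edgeR called 0 members in each comparison and the log2 fold change of Gp6 was 2.56 in IR against Sham. The 9 pairs of same-numbered libraries had correlations of -0.22 to 0.43 in their deviations from group means, 3 of them over 0.1, and 4 of 9 libraries were closest to one of their own number, so the numbers were not taken as pairing. Gp6 rested on as few as 24 counts in a library, and 3 libraries a group limit what an adjusted p can show.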
